A study of Venturia canescens with 6 samples.

Results

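A set of 150 gene models, of 22333 in the deposited table, differed between pools of heads in the same way within an asexual and within a sexual population of the parasitoid wasp Venturia canescens. RNA was sequenced from heads of adult females taken at emergence, in 3 asexual and 3 sexual pools of 30 heads each. All 6 pools were female and of 1 tissue, and the labels name no treatment, strain or collection site. Each population stands for its reproductive mode in a single instance, and the labels do not say what the pools of a population share beyond it (a day, a culture or a host batch). The pools are called asexual 1 to 3 and sexual 1 to 3 by the numbers in their labels. These numbers are names and carry no order.

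The members were chosen by their levels in these same libraries, expressed as CPM (counts scaled to the library total). A model was eligible if its number was at most 2000 or above 5500 and up to 20000, if its mean was 10 to 1000 CPM over the 6 pools, and if the ratio of asexual to sexual mean CPM lay between 1/1.4 and 1.4. Of the 22333 models, 16500 had a number in range, 7927 of these had a mean in range, and 7298 of these also met the limit on the population ratio. Membership then required a ratio of at least 1.4 both for asexual 3 over asexual 1 and for sexual 1 over sexual 2, or of at most 1/1.4 for both. The 132 models that met the first condition are called upward and the 18 that met the second are called downward. Asexual 2 and sexual 3 entered the choice only through the mean and the population ratio. Because the ratios chose the members, they are described here and not tested.

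In sexual populations of this wasp, as in most Hymenoptera, unfertilised eggs develop into sons, whereas in asexual populations they develop into daughters. A wasp head holds the brain, compound eyes and ocelli, antennae, mouthpart muscles, glands and fat body. The RNA of a pool of whole heads is a mixture over these tissues and over individuals, so fewer cells of a type and less RNA per cell cannot be told apart. The gene models carry numbers only, and 0 of them matched an identifier in a RefSeq table of 14011 genes of the species (assembly ASM1945775v1). No gene product, sequence or position can therefore be given, the label of head tissue could not be checked against marker genes, and no pathway was compared.

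Library totals ranged from 9265064 to 10990209 counts in the asexual pools and from 10796771 to 13117716 in the sexual pools, so that 1 count stood for 0.0762 to 0.108 CPM. Asexual 1, the lower asexual pool of the upward models, was the shallowest library. The sexual pools used for the ratio had near-equal totals, 10796771 in sexual 1 and 10827658 in sexual 2. The 10 most abundant models took 11.98% of the counts in asexual 1, 12.26% in asexual 2 and 14.24% in asexual 3, against 11.96%, 12.08% and 12.69% in sexual 1 to 3. The part of depth and of these shares in the pool differences was not tested. A pair of libraries stood apart in another way, since asexual 1 and sexual 3 held reads of models that were near 0 in the other pools of their population. Asexual 1 had 5.21% of the sexual level over 25 models that had no more than 1 count in asexual 2 and in asexual 3 but 20 or more in each sexual pool. By the mirrored choice, sexual 3 had 6.99% of the asexual level over 19 models. The other 4 pools had 0% to 1.58%, over 13 models in asexual 2, 14 in asexual 3, 5 in sexual 1 and 4 in sexual 2. Each share is of levels summed over these few models.

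The pool differences ran in the same direction in both populations more often than in opposite directions. Among the 7298 eligible models, asexual 3 was at least 1.4 times asexual 1 in 283 (3.88%), and sexual 1 was at least 1.4 times sexual 2 in 447 (6.12%). Both conditions held in the 132 upward models, which make up 46.6% of the asexual list and 29.5% of the sexual list. If the asexual and the sexual ratio were unrelated across models, the product of the shares would give 17.3 models by chance, so the observed number was 7.62 times as large. In the other direction, asexual 3 was at most 1/1.4 of asexual 1 in 124 models (1.7%), and sexual 1 was at most 1/1.4 of sexual 2 in 218 (2.99%). The 18 downward models make up 14.5% of the asexual and 8.26% of the sexual list, against 3.70 by the product of the shares, which is 4.86 times as many. Opposite directions were seen in 3 models, where the products give 16.0. In 2 of these asexual 3 was the lower pool and sexual 1 the higher, and in 1 the reverse held. The limit on the population ratio draws on the same libraries, and it removed a larger part of the opposite than of the upward models. Without it, 10 opposite models were found beside 175 upward and 30 downward of 7927. The products, which treat the ratios as unrelated, make no allowance for this limit. The ratios compared share no library between the populations, but models are not independent of each other, so the products are descriptions and no p-value is attached to them. The pools were also matched across the populations with these data known. Over the 11700 models tested, the deviations of a pool from its population mean correlated best with its match here, by 0.306 for asexual 1 with sexual 2, 0.291 for asexual 3 with sexual 1 and 0.0881 for asexual 2 with sexual 3. The excess over the products therefore describes the best-matching pools and is not that of pools matched beforehand.

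**Figure D1:**
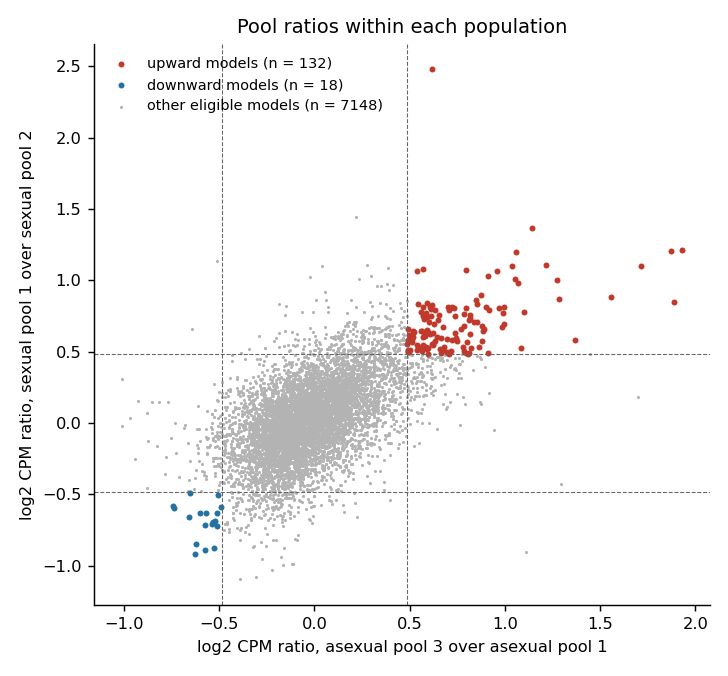
Each point is 1 of the 7298 eligible gene models, with the log2 CPM ratio of asexual 3 over asexual 1 on the horizontal axis and that of sexual 1 over sexual 2 on the vertical axis. Dashed lines mark ratios of 1.4 and 1/1.4; the 132 upward models fill the upper right field, the 18 downward models the lower left field, and the opposite fields hold 3 models.

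The relation was not confined to the members. The log2 ratios of the asexual and the sexual pair had a Pearson correlation of 0.573 over the 7298 eligible models, and of 0.506 over the 7148 that were not members. The points of this correlation share the same 4 libraries. Both ratios lay on the same side of 1 in 4883 of the 7148 other eligible models (68.3%). The median log2 ratio over all eligible models was -0.04 for the asexual pair and 0.03 for the sexual pair, small beside the cut. With both ratios centred on these medians, an alternative chosen after seeing the data, 133 upward and 18 downward models were found.

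The cut at 1.4 passed through a continuous range of ratios. Of the upward models, the 3 nearest to the cut had a weaker ratio of 1.4001 to 1.4015, and the nearest 3 outside had 1.3989 to 1.3998. The downward models nearest to the cut were lower by 1.407-fold to 1.418-fold in their weaker ratio, and the nearest outside by 1.392-fold to 1.394-fold. In 93 of the 132 upward models the weaker ratio was under 1.6, in 30 it was 1.6 to 2, and in 9 it was 2 or more. All 18 downward models had a weaker ratio under 1.6-fold.

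Counting error bears on which models fall on either side of the cut. The lowest count of any upward model in the 4 pools that define the ratios was 57, and that of any downward model was 93. The exact 95% intervals of the asexual and of the sexual ratio, which cover counting error only, both lay wholly beyond the cut of 1.4 in 34 upward and 2 downward models, so most members could lie on either side of it by counting error.

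Upward models were spread around a modest difference of similar size in the populations. The ratio of asexual 3 over asexual 1 ran from 1.4002 to 3.82 with a median of 1.61, and that of sexual 1 over sexual 2 from 1.4001 to 5.57 with a median of 1.57. The quartiles were 1.496 and 1.81 in the asexual pair and 1.47 and 1.75 in the sexual pair. The log2 change was larger in the asexual pair in 72 models and in the sexual pair in 60. Across the 132 models the log2 ratios of the populations had a Pearson correlation of 0.401, within a range that the choice had already cut at 1.4, and across the 18 downward models it was -0.12.

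In the upward set the medians of the pools were ordered alike at the extremes. The median level was 22.5 CPM in asexual 1, 27.7 in asexual 2 and 36.9 in asexual 3, against 41.8 in sexual 1, 23.6 in sexual 2 and 36.7 in sexual 3. Set against each model's own mean over the 6 pools, the median log2 level was -0.46 in asexual 1, -0.12 in asexual 2 and 0.27 in asexual 3, against 0.39 in sexual 1, -0.28 in sexual 2 and 0.21 in sexual 3. Over the 7148 other eligible models these medians stayed between -0.02 and 0.02 in every pool. The lowest of the 6 values of an upward model was in asexual 1 for 96 models and in sexual 2 for 28. The highest was in asexual 3 for 42 models, in sexual 1 for 80 and in sexual 3 for 9. The last model had its highest value in asexual 2.

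The upward models together took a share of each library that followed the same order. They held 0.576% of the counts in asexual 1 (95% Wilson interval 0.572% to 0.581%), 0.735% in asexual 2 (0.730% to 0.740%) and 0.978% in asexual 3 (0.972% to 0.984%). In the sexual libraries they held 1.06% in sexual 1 (1.05% to 1.06%), 0.654% in sexual 2 (0.649% to 0.659%) and 0.953% in sexual 3 (0.947% to 0.958%). Sexual 3 thus lay close to sexual 1, and asexual 2 lay between the other asexual pools.

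**Figure D2:**
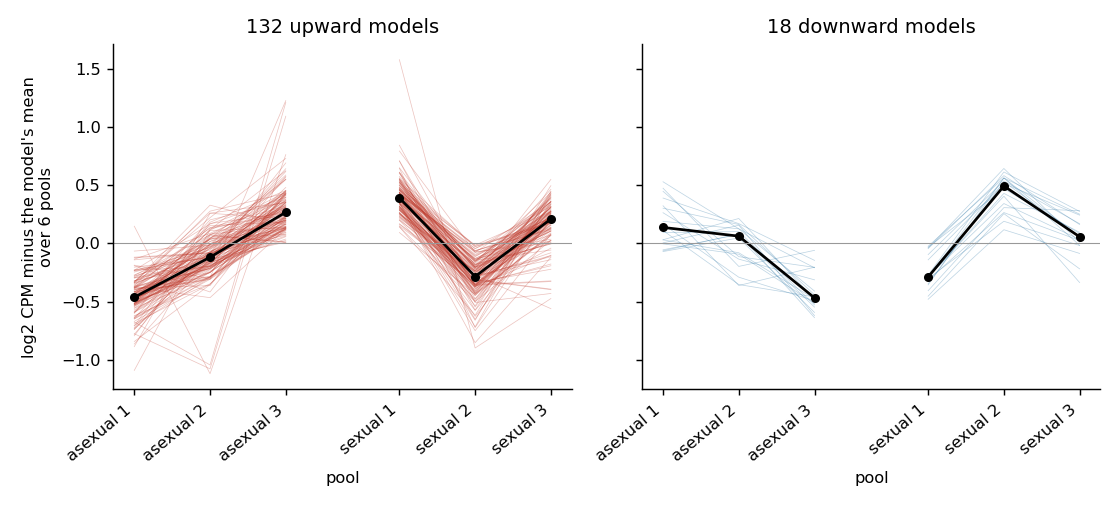
Level of each member in the 6 pools, as log2 CPM minus the model's own mean over the 6 pools, with asexual pools at the left and sexual pools at the right of each panel; thin lines are single models and black points are medians. Medians of the 132 upward models were -0.46 in asexual 1 and 0.27 in asexual 3, against 0.39 in sexual 1 and -0.28 in sexual 2. Those of the 18 downward models were 0.14 and -0.47, against -0.29 and 0.49, an opposite order that the choice sets. In the middle pools, upward and downward medians were -0.12 and 0.06 in asexual 2, and 0.21 and 0.06 in sexual 3.

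In the asexual pair the downward models had a smaller median difference than the upward models, and in the sexual pair a median of similar size. Asexual 1 exceeded asexual 3 by 1.41-fold to 1.68-fold with a median of 1.49-fold, and sexual 2 exceeded sexual 1 by 1.41-fold to 1.89-fold with a median of 1.59-fold. The log2 change was larger in the asexual pair in 5 models and in the sexual pair in 13. Median levels were 56.6 CPM in asexual 1, 40.1 in asexual 2 and 37.0 in asexual 3, against 38.5 in sexual 1, 58.9 in sexual 2 and 47.6 in sexual 3. Relative to each model's mean, the median log2 level was 0.14 in asexual 1, 0.06 in asexual 2 and -0.47 in asexual 3, against -0.29 in sexual 1, 0.49 in sexual 2 and 0.06 in sexual 3. Asexual 3 was the lowest of the 6 pools in 12 of the 18 models, and sexual 2 was the highest in 13. The set held 0.251%, 0.262% and 0.171% of the counts of asexual 1 to 3, against 0.223%, 0.366% and 0.265% of those of sexual 1 to 3.

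Asexual 2 and sexual 3 were mostly, but not always, the middle pools. Their place was measured on the log2 scale as 0 at the lower and 1 at the higher of the other pools of the population. Among upward models, asexual 2 had a median position of 0.49 (quartiles 0.32 and 0.64) and lay between asexual 1 and asexual 3 in 122 of 132. It lay below both in 6 and above both in 4. Sexual 3 had a median position of 0.75 (quartiles 0.48 and 0.89) and lay between sexual 2 and sexual 1 in 113 of 132, below both in 3 and above both in 16. Sexual 3 was nearer to the higher pool in 96 upward models and asexual 2 in 62. Both lay between the extremes in 104 upward models, and in 1 neither did.

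Among downward models, asexual 2 was less often in the middle. Its median position was 0.80, next to the higher pool, and it lay between asexual 3 and asexual 1 in 10 of 18 models, above both in 6 and below both in 2. Sexual 3 had a median position of 0.48 and lay between sexual 1 and sexual 2 in 17 of 18 models. Both were in the middle in 10 downward models. For the 7148 other eligible models, asexual 2 lay between asexual 1 and asexual 3 in 46.3%, sexual 3 between the other sexual pools in 47.0%, and both in 23.2%. The wider gap between the extremes that chose the members leaves more room for a middle pool, so these shares are set side by side without a test.

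**Figure D3:**
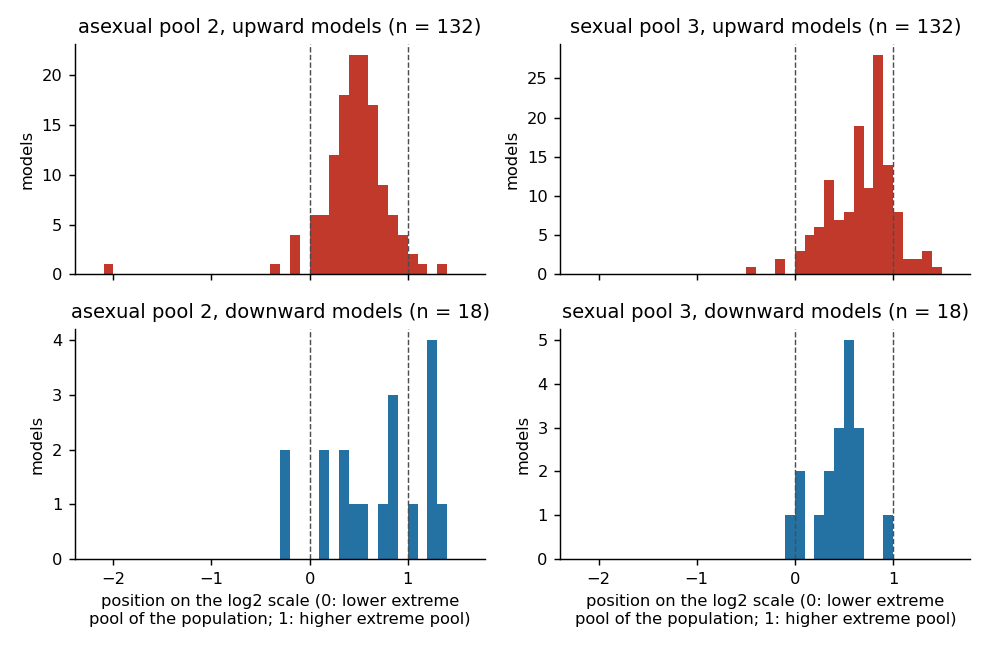
Number of members by the position of asexual 2 (left) and sexual 3 (right) between the other pools of their population on the log2 scale, where 0 is the lower and 1 the higher extreme pool; upward models are above and downward models below. Sexual 3 sits nearer to the higher pool in upward models (median 0.75), while asexual 2 is centred (median 0.49).

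The upward models with the largest weaker ratio show how single members depart from the median profile. Gene model g16166 had 12.7, 16.9 and 48.6 CPM in asexual 1 to 3, against 33.9, 14.6 and 15.4 CPM in sexual 1 to 3. A single pool stood above the rest in each population, asexual 3 and sexual 1, and asexual 2 and sexual 3 lay near the low pool. The ratio was 3.82 in the asexual pair (95% counting interval 3.12 to 4.70) and 2.32 in the sexual pair (1.92 to 2.82). Means were 26.1 ± 19.6 CPM in asexual and 21.3 ± 10.9 CPM in sexual pools (SD, n = 3 each), and the populations overlapped.

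Gene model g18160 had 23.5, 19.1 and 86.0 CPM in asexual 1 to 3, against 72.3, 31.4 and 48.8 CPM in sexual 1 to 3. Asexual 2 lay below both other asexual pools, while sexual 3 lay in the middle. The ratio was 3.65 in the asexual pair (3.15 to 4.25) and 2.30 in the sexual pair (2.03 to 2.62). The means of 42.9 ± 37.4 CPM in asexual and 50.8 ± 20.5 CPM in sexual pools differed by less than their SDs (n = 3 each). With the next 7, these models form the 9 upward members with both ratios at 2 or more, which reached 2.05 to 3.82 in the asexual and 2.002 to 2.58 in the sexual pair at mean levels of 12.2 to 288 CPM.

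Among downward models, g1642 had 22.7, 16.5 and 14.4 CPM in asexual 1 to 3, against 18.3, 28.9 and 23.9 CPM in sexual 1 to 3. Asexual 3 and sexual 1 were the lowest pools of their populations. Asexual 1 exceeded asexual 3 by 1.58-fold (1.28 to 1.95), and sexual 2 exceeded sexual 1 by 1.58-fold (1.32 to 1.89). Gene model g9303 had 293, 326 and 190 CPM in asexual 1 to 3, against 228, 432 and 348 CPM in sexual 1 to 3. Here asexual 2 was the highest asexual pool. Asexual 1 exceeded asexual 3 by 1.54-fold (1.46 to 1.63) and sexual 2 exceeded sexual 1 by 1.89-fold (1.80 to 1.99), the largest sexual difference of the downward set.

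**Figure D4:**
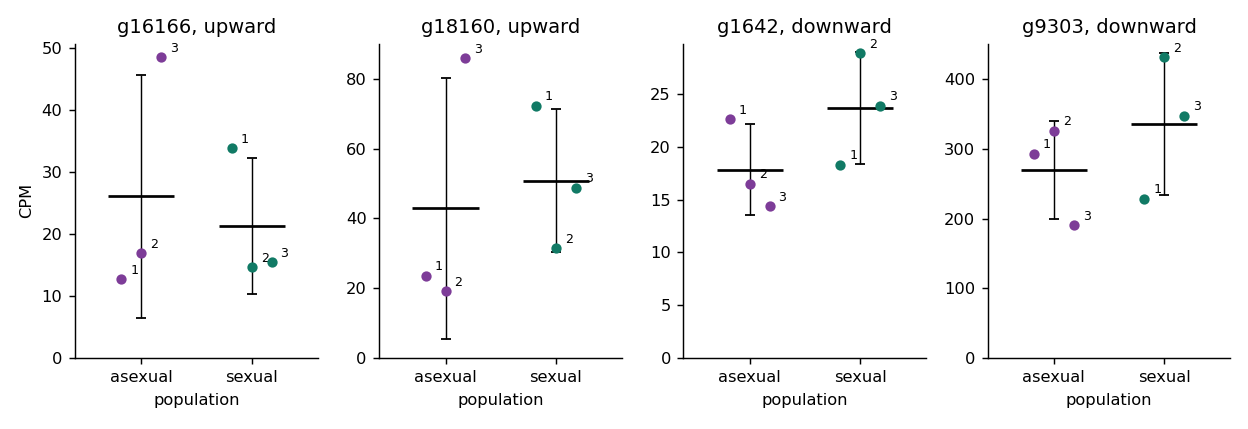
CPM of the 2 upward and the 2 downward gene models with the largest weaker ratio, in asexual (left) and sexual (right) pools; points are pools with their numbers, and bars are means with SD (n = 3). In g16166 and g18160 asexual 3 and sexual 1 are the highest pools of their populations, and in g1642 and g9303 they are the lowest.

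A few other members, picked after their values were seen and left without identifiers, mark the edges of the set. The most abundant upward model had 452, 643 and 851 CPM in asexual 1 to 3, against 944, 545 and 945 CPM in sexual 1 to 3, so that sexual 3 was level with sexual 1 there. The most abundant downward model had 675, 732 and 470 CPM in asexual 1 to 3, against 690, 1107 and 713 CPM in sexual 1 to 3, and there a single pool of each population stood apart. The upward model with the widest sexual ratio (5.57) had 18.9, 7.84 and 28.9 CPM in asexual 1 to 3, against 50.9, 9.14 and 12.3 CPM in sexual 1 to 3. In that model asexual 2 was the lowest of all 6 pools, far outside the asexual pair.

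Members were found at all levels of expression within the limits. The mean level ran from 10.6 to 730.0 CPM with a median of 32.1 in upward models, and from 11.7 to 731 CPM with a median of 47.8 in downward models, beside a median of 45.3 CPM in the other eligible models. Upward models made up 2.504% of eligible models at 10 to 30 CPM (63 of 2516), 1.58% at 30 to 100 CPM (48 of 3038) and 1.20% at 100 to 1000 CPM (21 of 1744). Downward models numbered 9, 2 and 7 in these classes. By number, upward models made up 1.97% of eligible models at 1 to 2000, 1.48% above 5500 and up to 10000, 1.64% from there to 15000 and 2.40% from there to 20000.

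Some members stood next to each other in the table. Taking the eligible models in table order, 9 neighbouring pairs were both upward, where the share of upward models squared would give 2.39, and 4 of the 9 pairs carried consecutive numbers. One pair of neighbours was both downward, also with consecutive numbers. These pairs included 18 of the 132 upward and 2 of the 18 downward models. Whether such neighbours belong to 1 gene or share reads was not tested.

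Outside the limits of the choice, the balance of same and opposite directions varied. Among 86 models above 1000 CPM that met the other limits, 4 were upward, 0 downward and 0 opposite. Of 30 models numbered above 2000 and up to 5500, 2 were upward, as were 2 of 88 numbered above 20000, with 0 downward and 0 opposite in both ranges. Models at 1 to 10 CPM, where counts are few, gave 145 upward, 54 downward and 71 opposite models of 2040. Among the 349 models whose asexual mean was under 1/1.4 of the sexual mean, 40 (11.5%) were upward, 12 downward and 2 opposite. Of the eligible models, 1.81% were upward. Among the 280 whose asexual mean was over 1.4 times the sexual mean, 5 were opposite, 3 upward and 0 downward, too few to rank the directions. No product of shares is set beside these counts.

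The comparison of asexual with sexual pools limits what can be read from the members, since the choice bounded the ratio of the population means. That ratio ran from 0.715 to 1.32. It was under 1 in 107 of the 132 upward and 13 of the 18 downward models, with medians of 0.880 and 0.868. By pool, asexual 3 had a median of 0.914 times the level of sexual 1 in upward models, asexual 1 0.884 times that of sexual 2, and asexual 2 0.813 times that of sexual 3, and asexual 2 was below sexual 3 in 112 of 132. In downward models the same ratios were 0.862, 0.771 and 0.982.

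None of the members passed the test between populations. By edgeR's quasi-likelihood test with Benjamini-Hochberg adjustment over 11700 models, 0 of the 150 members were called at an adjusted p under 0.05. All members passed the count filter. Calls made up 5.59% of the eligible models (408 of 7298) and 12.9% of all tested models. Of all tested models, 6.79% were called as higher and 6.06% as lower in asexual pools. At an unadjusted p under 0.05 there were 11 members (7.33%), beside 1595 of the 7298 eligible models (21.9%). DESeq2 also called 0 of the 150, beside 365 of the 7298 eligible models. Its unadjusted p was under 0.05 in 23 members (15.3%), beside 1220 eligible models (16.7%). The CPM ranges of the populations did not overlap in 26.9% of eligible models and in 0 members. The choice favours both zeros, since it limits the difference between the means and requires a wide spread within each population, so nothing about the members follows from them. The median log2 fold change, asexual over sexual, was -0.17 in upward and -0.21 in downward models, beside 0.00 in all eligible models. Leaving out asexual 3 gave 21 called members (14.0%), all upward models with a lower level in asexual pools, beside 450 eligible models (6.17%). Leaving out sexual 2 gave 11 (7.33%), again all upward and lower in asexual pools, beside 499 eligible models (6.84%). Removing a pool that was chosen as the high or low one of its population moves that population's mean by construction, and with it the direction of such calls. Leaving out asexual 1 or sexual 1 gave 1 each, a downward model that was lower in asexual pools, beside 147 and 330 eligible models, and leaving out asexual 2 or sexual 3 gave 0, beside 80 and 67. Without a filter on low counts, 10 members (6.67%) were called as lower in asexual pools, a share close to that of the eligible models (566, or 7.76%).

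The number of members rested on the pools that define the ratios. In alternatives chosen after seeing the data, each of these pools was left out and the middle pool of its population took its place, which narrows the gap between the pools compared. Without asexual 1 there were 58 upward and 13 downward models, of which 39 and 8 were members of the original sets, and 5 opposite models. Without asexual 3 there were 31 upward, 5 downward and 4 opposite models. Without sexual 1 there were 94 upward, 5 downward and 4 opposite models, and without sexual 2 there were 24 upward, 6 downward and 8 opposite models. The middle pools could be left out without such a change, giving 137 upward and 16 downward models without asexual 2, and 135 and 16 without sexual 3. Without asexual 1 and sexual 3 together, the libraries with reads of models near 0 in the other pools of their population, 60 upward, 9 downward and 7 opposite models were found. Under each of these alternatives upward models outnumbered downward models.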

How the data were processed

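Per the labels' protocols, polyadenylated RNA of 6 pools of 30 heads was made into TruSeq Stranded mRNA libraries. The authors deposited 1 table of raw counts per gene model for all pools, not normalized. HISAT2, Trimmomatic and DESeq2 appear, with neither role nor version, in the submitters' processing notes. The counting tool, strand setting, gene annotation and genome build were not given in the sources used here, and reads of antisense or overlapping models may be shared. All columns were matched to a sample through the source names (0 left over).

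CPM for the choice of members used the column totals. The members, the rule and the alternatives were set with earlier results of these data known. The test between populations used the deposited counts in R 4.3.3 with edgeR 4.0.16 and limma 3.58.1 (quasi-likelihood F test). Its settings were TMM scaling, the default filterByExpr and a design with population alone. Benjamini-Hochberg adjusted p-values under 0.05 counted as calls. Ratios of 2 libraries have exact (Clopper-Pearson) and shares of counts Wilson 95% intervals. These cover only counting error, since no spread between pools enters them, and reads were not collapsed to molecules. Identifiers are given for the 2 models per direction with the largest value of the smaller absolute log2 ratio. No pools were merged, since all pairs within a population differed beyond sampling noise (8.45 to 22.0 chi-square units per degree of freedom). The pairs used for the ratios differed most within their populations. Asexual 1 and 3 had 18.1 units, beside 8.45 and 12.5 for the other asexual pairs. Sexual 1 and 2 had 22.0, beside 10.4 and 14.0 for the other sexual pairs. The submitters call the pools biological replicates. Whether they came from separate cultures is not stated, so p-values set the difference between the populations against the spread between these pools only. The alternatives were other scalings (TMM, DESeq2 1.42.0 size factors), ratio thresholds, level limits, DESeq2's test, a replicate block and leaving out pools. The scripts were tested on simulated data.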

Additional observations from a re-analysis of the deposited data

How the results depend on the processing

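Among upward, downward and opposite models in this order, other scalings gave 141, 16 and 2 (TMM) or 123, 20 and 3 (DESeq2 size factors), against 132, 18 and 3. TMM kept 113 upward and 12 downward members, and DESeq2 size factors 108 and 16. A ratio threshold of 5/4 gave 416, 157 and 15, and a threshold of 2 gave 9, 0 and 0. A minimum of 50 CPM gave 46, 9 and 1, and a minimum of 1 CPM gave 277, 72 and 74. Without the limit on the population ratio there were 175, 30 and 10, and with all identifiers 136, 18 and 3. Upward models made up 88.0% of the members, and 72.6% at a threshold of 5/4. Leaving out pools gave 24 to 137 upward, 5 to 16 downward and 4 to 8 opposite models. The looser cuts keep all 132 upward and 18 downward members by construction, and the stricter cuts only remove models. The cause of the changes with scaling and with pools left out was not tested. The median positions of asexual 2 and sexual 3 stayed within 1 SD over members under TMM scaling, log2(CPM + 1) and, for upward models, the threshold of 2.

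Members called between populations numbered 0 beside 408 eligible models, and 10 beside 566 without a count filter. With pools left out, 0 to 21 members were called, beside 67 to 499 eligible models. All called models numbered 1504, and 836 (without sexual 3) to 1594 (without sexual 2) with pools left out, with 863 without asexual 2. A replicate block left 1165 calls, 1127 of them among the 1504, and called 0 members. Same-numbered pools correlated in their deviations by -0.22, 0.00688 and 0.0416. The source names of all 6 pools begin with the same string, and no label sets same-numbered pools together, so the numbers are not taken as pairs. None of the 6 pools correlated best with its own number, and the best match of each was the pool set beside it by the choice of members (0.0881 to 0.306). The ratios of models near 10 CPM rest on about 100 counts a library, which limits how sharply the threshold separates members from others.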
